A study of Danio rerio with 12 samples.

Results

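The comparison set zebrafish embryos held in 50 µg/L methylmercury (MeHg50) against embryos held in 6 µg/L (MeHg6), the highest and the lowest of the 3 exposures in the series. Its members were the 3 libraries of each exposure, chosen by their labels, which are 6 of the 12 libraries in all. The other 6 libraries, 3 at 30 µg/L (MeHg30) and 3 unexposed controls, enter below only as levels. All embryos were labelled WT, were whole, and had been in the water with the compound from 4 to 72 h post-fertilisation. Poly(A) RNA was sequenced as paired reads of 150 bases. The MeHg50 libraries held 18593766, 17586230 and 20187568 gene counts and the MeHg6 libraries 17150992, 20251479 and 15665053. Nothing in the labels tells whether a group's 3 samples had their own clutch or tank, so each p-value reflects the spread among those samples alone, which may be technical. As MeHg6 embryos were themselves exposed, the comparison is one of dose among exposed embryos and holds no untreated reference.

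Methylmercury is an organic mercury compound that crosses into brain and eye and binds the sulfur of cysteine and the selenium of selenocysteine. Cells exposed to such metals are known to make metallothionein, a small cysteine-rich metal-binding protein, through the factor Mtf1. They are also known to make glutathione and detoxifying enzymes through the factor Nrf2, and chaperones of the Hsp70 and Hsp90 families through heat shock factors. By its title and design the study looked for marker genes of the compound's toxic effect, and the present comparison asks which genes differ between a high and a low exposure.

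Of 19698 genes tested, 4318 were higher in MeHg50 embryos and 4595 were lower at an adjusted p under 0.05 (edgeR quasi-likelihood test, Benjamini-Hochberg adjustment over all genes tested), which is 21.9% and 23.3% of the genes tested and 45.2% in all. Such genes are said below to have risen or fallen, or to be called. Most differences were small. Among the called genes 3722 differed by under 0.5 on the log2 scale, 3584 by 0.5 to 1, 1259 by 1 to 2, 225 by 2 to 3 and 123 by over 3. Those at least 2-fold apart numbered 1607, or 8.16% of the genes tested, 735 of them (3.73%) higher and 872 (4.43%) lower in MeHg50 embryos. The 3 libraries of one group lay wholly above those of the other for 10652 genes, 54.1% of those tested, and the median log2 fold change of all tested genes was -0.02. Most genes named below were chosen for a large difference without overlap or for a small p. A lack of overlap in them follows largely from that choice and is no added support. With so large a share of genes called, a gene list holds many called members whatever it is, and each count below is to be read against these shares.

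The 6 libraries were close within a group, with Spearman correlations of 0.991 to 0.994, against 0.961 to 0.966 between groups, and the first principal component, with 76.8% of the variance, separated the groups. The biological coefficient of variation was 0.0643 among MeHg50 libraries and 0.103 among MeHg6 libraries. Scaling by library totals alone moved the median of all genes by -0.11 and gave 3000 higher and 6182 lower genes, so that 32.7% of the called genes were higher, against 48.4% with the scaling used here. A fit on all 12 libraries, in which control replicate 3 stands apart from the other controls (Spearman correlation 0.927 and 0.944, against 0.991 between the other two), called 2204 higher and 2537 lower genes. Of the genes with values below, rho, hmox1a, gpx1a, grin1b, hbbe3, ndufa4, atp2a2a, nefma, plp1a, mmp9 and slc39a6 were not called in that fit. Their edgeR adjusted p in that order was 0.25, 0.35, 0.081, 0.099, 0.11, 0.12, 0.26, 0.1, 0.051, 0.48 and 0.17. Defining markers of skeletal muscle, heart, liver, neurons, epidermis, islet, lens, endothelium, blood, neutrophils, cartilage and cones had counts in all 6 libraries.

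**Figure D1:**
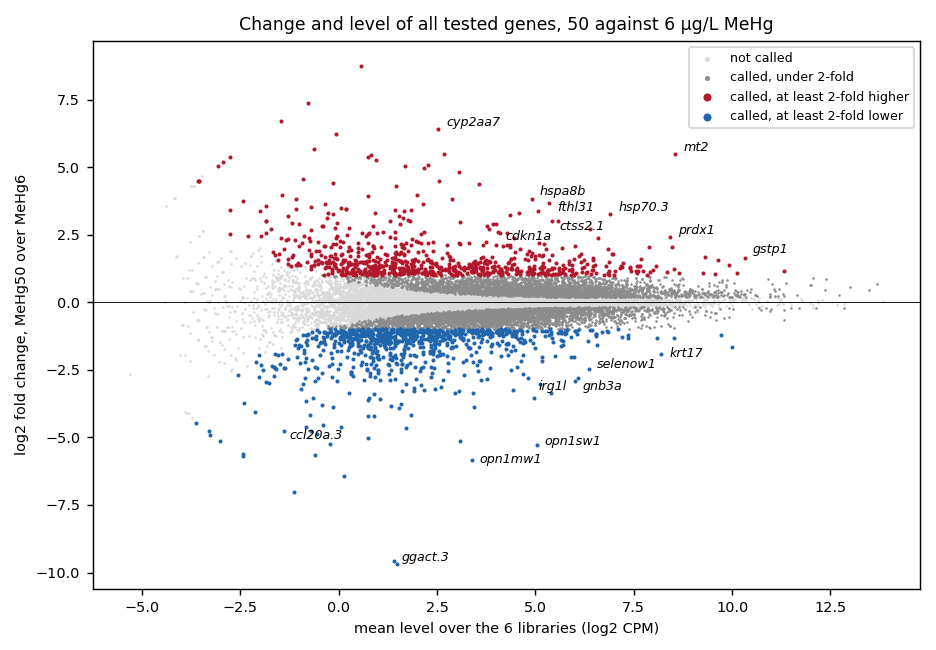
The log2 fold change of MeHg50 over MeHg6 embryos (y axis) for each tested gene is plotted against its mean level over the 6 libraries in log2 CPM (x axis). Red points are the 735 genes called at least 2-fold higher and blue points the 872 called at least 2-fold lower, with mt2 standing out among abundant genes and the cone opsins opn1sw1 and opn1mw1 among the falls.

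The metallothionein gene mt2 (chromosome 18, 17534627 to 17535979 on the plus strand of GRCz11) held 749, 724 and 743 CPM in MeHg50 libraries, against 18.3, 17.1 and 14.1 CPM in MeHg6 libraries. CPM is a gene's count relative to its library total, after TMM scaling. The groups lay far apart with little spread in either, and the log2 fold change was 5.48 ± 0.10 (SE, n = 3 each, edgeR adjusted p = 2.2e-13), a 44.7-fold rise. At 0, 6, 30 and 50 µg/L the mean of mt2 was 28.7, 16.5, 137 and 739 CPM, so the low exposure was not above the controls. The list of metallothionein and zinc-handling genes had 8 tested members of 9, of which 4 rose and 1 fell. Besides mt2, the zinc exporter genes slc30a1a and slc30a1b, which are known targets of Mtf1, rose by 1.1 ± 0.10 and 1.12 ± 0.15 on the log2 scale. The zinc importer gene slc39a10 fell, with a log2 fold change of -0.81 ± 0.08, and held 27.9 CPM on average in MeHg50 and 48.9 CPM in MeHg6 libraries. The remaining gene called higher was slc39a6, of the same family as slc39a10. Its call was lost in the fit on all 12 libraries (log2 fold change 0.28) and under scaling by totals alone (0.16). It was also lost without MeHg50 replicate 2 or 3 or MeHg6 replicate 3, where the log2 fold change was 0.26, 0.26 and 0.23.

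Genes of glutathione synthesis and recycling were higher more often than all tested genes, and lower at near the share of all genes. Glutathione reductase, gsr, which returns oxidised glutathione to its reduced form, held 184, 174 and 190 CPM in MeHg50 and 50.7, 43.9 and 44.7 CPM in MeHg6 libraries, a log2 fold change of 1.98 ± 0.08. The subunits of the enzyme that starts glutathione synthesis, gclc and gclm, rose by 1.18 ± 0.07 and 1.21 ± 0.08. Of 20 tested glutathione genes 11 rose and 5 fell, with a median of 0.46 beside -0.02 for all genes, and 3 fell without MeHg50 replicate 2 or 3. In the fit on all 12 libraries 8 rose and 2 fell. The 5 that fell include the glutathione peroxidase genes gpx1a and gpx4a, which also belong to the selenoproteins below. In the Nrf2 and phase II list 21 of 34 members rose and 4 fell, with a median of 0.54, and 1 fell without MeHg50 replicate 1 or 2 and 2 without MeHg6 replicate 1. The glutathione transferase gene gstp1 held 2035, 1861 and 1927 CPM in MeHg50 and 684, 540 and 656 CPM in MeHg6 libraries (log2 fold change 1.63 ± 0.09). Its groups did not overlap.

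Heme oxygenase hmox1a, a target of Nrf2 in many animals, differed little by comparison, with 28.2, 30.8 and 33.4 CPM in MeHg50 and 24.3, 22.3 and 22.8 CPM in MeHg6 libraries (log2 fold change 0.41 ± 0.09, edgeR adjusted p = 0.0022). Its mean was highest at 30 µg/L, at 44.3 CPM. The peroxide-removing enzyme gene prdx1 held 582, 564 and 587 CPM in MeHg50 and 125, 97.2 and 102 CPM in MeHg6 libraries, a log2 fold change of 2.42 ± 0.09. Thioredoxin, txn, rose by 1.34 ± 0.08 and its reductase gene txnrd3, a selenoprotein gene, by 0.60 ± 0.06. The thioredoxin and peroxiredoxin list also held superoxide dismutase and catalase genes. Of its 18 tested members 8 rose and 1 fell, at a median of 0.31. The lower ones numbered 1 without MeHg6 replicate 1, 0 without any other 1 library and in the fit on all 12, and 3 under scaling by totals alone. The glutathione and thioredoxin systems draw their reducing power from NADPH. Of 11 tested genes of the pentose phosphate pathway and other NADPH-making enzymes 8 rose and 1 fell, with a median of 0.90. Examples were me1 at 1.69 ± 0.14, pgd at 1.32 ± 0.07 and idh1 at 0.90 ± 0.07.

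Selenoproteins, which carry selenocysteine in place of cysteine, fell more often than they rose. The selenoprotein list also held sepsecs and secisbp2, which serve the making and insertion of selenocysteine. Of its 31 tested members 5 rose and 15 fell, with a median of -0.24, and 6 of the 15 fell at least 2-fold. The steepest fall was that of selenow1, with 23.7, 23.9 and 27.3 CPM in MeHg50 and 153, 131 and 137 CPM in MeHg6 libraries (log2 fold change -2.49 ± 0.09, edgeR adjusted p = 2.2e-10). The highest MeHg50 library lay far under the lowest MeHg6 library. Glutathione peroxidase genes gpx4a and gpx1a fell by 1.58 ± 0.08 and 0.99 ± 0.11, and selenou1a and selenow2a by 1.15 ± 0.07 and 1.08 ± 0.07. At 0, 6, 30 and 50 µg/L the mean of selenow1 was 269, 140, 33.8 and 25 CPM. In the fit on all 12 libraries 2 members of the selenoprotein list were called higher and 9 lower.

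Chaperones and the proteasome, which refold and remove damaged proteins, rose as groups. The heat-inducible hsp70.3 held 191, 218 and 243 CPM in MeHg50 and 23.4, 24.7 and 19.5 CPM in MeHg6 libraries (log2 fold change 3.26 ± 0.11, edgeR adjusted p = 1.3e-10). Its relative hspa8b held 58.3, 54.8 and 54.8 CPM in MeHg50 and 4.25, 5.30 and 2.06 CPM in MeHg6 libraries, a log2 fold change of 3.81 ± 0.18. In both genes the lowest MeHg50 library stood several-fold above the highest MeHg6 library. The Hsp90 gene hsp90aa1.2 averaged 576 ± 9.27 CPM in MeHg50 and 140 ± 9.67 CPM in MeHg6 libraries (SD, n = 3 each). The list of cytosolic Hsp70 and Hsp90 chaperones also held genes of small heat shock proteins and heat shock factors, and serpinh1b. Of its 21 tested members 17 rose and 1 fell, with a median of 0.78. Of 31 co-chaperone and chaperonin genes 18 rose and 3 fell, with a median of 0.27. The Hsp40 gene dnajb1b, a partner of Hsp70, rose by 1.26 ± 0.08.

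Proteasome subunits moved by less but almost without exception, with 38 of 41 higher and 0 lower, at a median of 0.50 and a range of -0.14 to 1.32. Subunit gene psmd3 held 267, 284 and 314 CPM in MeHg50 and 98.9, 112 and 134 CPM in MeHg6 libraries, a log2 fold change of 1.32 ± 0.10, and psmb5, a catalytic subunit, rose by 1.17 ± 0.08. The autophagy receptor gene sqstm1, which carries ubiquitinated protein to the lysosome, rose by 1.72 ± 0.09. Aminoacyl-tRNA synthetases, which charge tRNAs for translation, rose in 19 of 20 cases at a median of 0.42, with eprs1 at 1.02 ± 0.10 the largest and kars1 at 0.66 ± 0.06. The list of ATF4 and unfolded protein response genes had 17 higher and 3 lower of 39, with a median of 0.14. Under scaling by totals alone 13 were higher and 6 lower, at a median of 0.03. The ATF4 list also holds psat1, phgdh and asns, which are named with the next list. Among the serine, one-carbon and sulfur amino acid genes 21 of 35 rose and 3 fell, with a median of 0.42, including the methionine adenosyltransferase gene mat2aa (1.23 ± 0.08), the serine synthesis genes psat1 (1.01 ± 0.07) and phgdh (0.83 ± 0.07), and asns, the asparagine synthetase gene (0.97 ± 0.09). The lower ones of these numbered 1 without MeHg50 replicate 1 or 2 and 0 in the fit on all 12 libraries. In that fit 22 proteasome, 9 synthetase and 11 ATF4 genes were called higher.

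Genes of cell cycle arrest and cell death after damage were in part higher. The cell cycle inhibitor cdkn1a held 27.6, 27 and 30.2 CPM in MeHg50 and 5.49, 4.19 and 4.44 CPM in MeHg6 libraries, a log2 fold change of 2.59 ± 0.12. The groups were several spreads apart. The ubiquitin ligase gene mdm2 rose by 1.62 ± 0.08, the death activator bbc3 by 2.09 ± 0.10 and phlda3 by 1.42 ± 0.09. Of 31 tested genes of arrest and cell death 14 rose, 8 of them at least 2-fold, and 3 fell, at a median of 0.21.

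Genes of DNA replication and mitosis were higher in MeHg50 embryos in nearly every case. Of 50 replication genes 48 rose and 0 fell, with a median of 0.80 and a range of 0.21 to 1.56, and of 49 mitosis genes 46 rose and 0 fell, with a median of 0.71. Topoisomerase top2a, which untangles chromosomes before they part, held 414, 404 and 392 CPM in MeHg50 and 207, 218 and 206 CPM in MeHg6 libraries (log2 fold change 0.94 ± 0.06, edgeR adjusted p = 8.8e-08). The 3 values of each group lay within a narrow band. The ribonucleotide reductase subunit rrm1 rose by 1.13 ± 0.06, the chromatin assembly subunit chaf1b by 1.56 ± 0.11, the mitotic kinesin kif4 by 1.08 ± 0.07 and the proliferation marker mki67 by 0.84 ± 0.07. These genes were thus higher in the same libraries as the inhibitor cdkn1a, and whether the same cells held both cannot be told from whole embryos. Ribosomal protein genes rose in 53 of 84 cases and fell in 1, at a median of 0.25, but that count depended on the fit, with 2 higher in the fit on all 12 libraries, 20 when scaled by totals alone and 21 without MeHg50 replicate 1. The list's largest rise was that of rps27l, a paralog of a core ribosomal protein gene, at 1.73 ± 0.09.

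**Figure D2:**
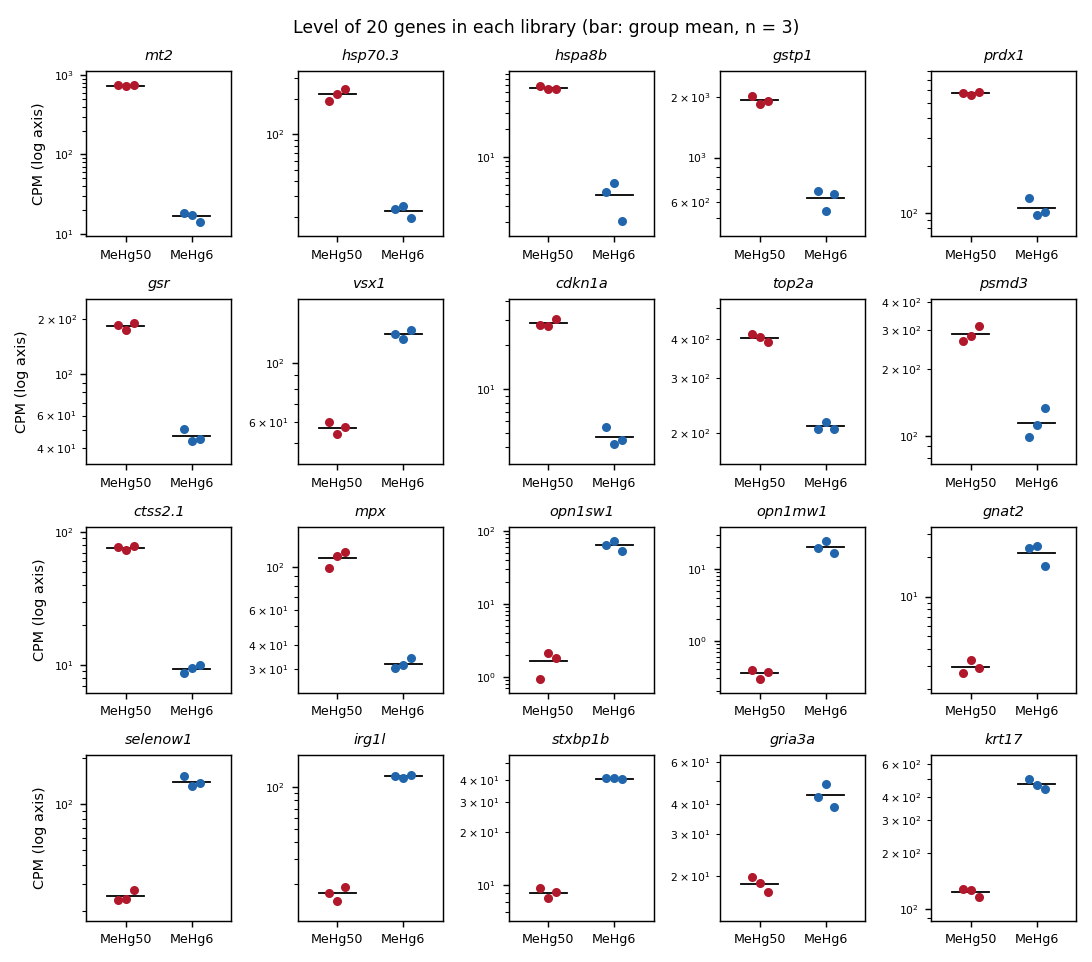
Level in CPM (log axis) of 20 genes in each library, with 3 MeHg50 libraries in red on the left, 3 MeHg6 libraries in blue on the right and a bar at each group's mean. No gene in the plot has overlapping groups, which also held for 54.1% of the genes tested, and the gaps are wide in mt2 and in the cone opsin opn1sw1.

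Cone photoreceptor genes had the lowest median of the 57 lists examined. Zebrafish see colour with 4 classes of cone, each defined by its opsin, and the light signal passes from opsin to the G protein transducin, a phosphodiesterase and a channel. The ultraviolet opsin opn1sw1 (chromosome 4, 13577665 to 13580348, minus strand, GRCz11) held 0.946, 2.12 and 1.83 CPM in MeHg50 and 65.2, 73.5 and 52.7 CPM in MeHg6 libraries, a log2 fold change of -5.29 ± 0.19 (edgeR adjusted p = 2.9e-10) and a 39.08-fold difference. The green opsin opn1mw1, which has near-identical neighbours that may share reads, held 0.390, 0.294 and 0.367 CPM in MeHg50 and 19.8, 24.8 and 16.8 CPM in MeHg6 libraries (log2 fold change -5.84 ± 0.24). All MeHg50 libraries were thus far under the lowest MeHg6 library for both opsins. The blue opsin opn1sw2 fell by 3.86 ± 0.20 and the red opsin opn1lw2 by 3.37 ± 0.18.

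Per length, in mean FPKM, the opsins kept 0.213 for opn1mw1, 0.880 for opn1sw1, 0.880 for opn1sw2 and 3.90 for opn1lw2 in MeHg50 embryos, against 13.5, 37.3, 13.9 and 44.0 in the same order in MeHg6 embryos. The red opsin was the highest of the 4 in both groups, while the ultraviolet opsin, close behind it in MeHg6 embryos, was level with the blue opsin in MeHg50 embryos. Downstream, the cone transducin alpha gene gnat2 held 2.62, 3.29 and 2.88 CPM in MeHg50 and 23.4, 24.1 and 17.1 CPM in MeHg6 libraries (-2.88 ± 0.16). Its partners gngt2b and gnb3b fell by 5.13 ± 0.21 and 3.37 ± 0.19, and the disc rim genes prph2a and prph2b by 3.27 ± 0.28 and 3.77 ± 0.32. Of 27 tested cone genes 24 fell, 23 of them at least 2-fold, and 0 rose, with a median of -2.41 beside -0.02 for all genes. The other 12 of the 39 cone genes in the table lay under the level filter, and some of the 27 passed only through their MeHg6 level. Summed over the 27 genes, the level was 78.0 to 91.4 CPM in MeHg50 and 495.9 to 597 CPM in MeHg6 libraries. In whole embryos, fewer cells of a type and less RNA per cell cannot be told apart.

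Rod genes fell by smaller amounts, a difference that was not tested against the cones. Rhodopsin, rho, held 5.73, 10.6 and 8.96 CPM in MeHg50 and 14.8, 25.4 and 32.9 CPM in MeHg6 libraries (log2 fold change -1.53 ± 0.25), with a wide spread in MeHg6. The rod transducin gene gnat1 fell by 1.82 ± 0.15 and the rod arrestin gene saga by 1.53 ± 0.18, and 10 of 14 tested rod genes fell and 1 rose, at a median of -1.03, with 0 higher without MeHg50 replicate 2 or 3 and 2 higher without MeHg6 replicate 3. The summed rod level nonetheless overlapped, at 451 to 532 CPM in MeHg50 and 463 to 559 CPM in MeHg6 libraries, and most of it came from gnb1a and gnb1b, G protein genes with wide expression that did not fall. Beyond the photoreceptors, 17 of 28 tested genes of inner retina and retinal determination fell and 6 rose, at a median of -0.74. Those called higher numbered 3 without MeHg50 replicate 3 or MeHg6 replicate 3. The list shares pax6b with the islet list and pou4f3 with the hair cell list, so its counts are not of the retina alone. The bipolar cell gene vsx1 held 59.7, 54.1 and 57.1 CPM in MeHg50 and 128, 123 and 133 CPM in MeHg6 libraries, a log2 fold change of -1.17 ± 0.07 with no overlap of groups. Retinaldehyde-binding protein rlbp1a, of Müller glia and pigment epithelium, fell by 1.59 ± 0.11. Lens crystallin genes gave 7 higher and 8 lower of 49, at a median of -0.02, but this balance depended on the scaling and the fit. Under scaling by totals alone 4 were higher and 19 lower, at a median of -0.13, and in the fit on all 12 libraries 1 was higher and 2 lower. Leaving out MeHg6 replicate 1 gave 11 higher and 5 lower, and leaving out any 1 MeHg50 replicate gave 5 lower.

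A pair of G protein subunits that the retina's ON bipolar cells are known to use were lower. Of these, gnb3a is a member of the cone list and is already counted in its calls and sum above. The beta subunit gnb3a held 14.8, 15.5 and 15.5 CPM in MeHg50 and 114, 110 and 117 CPM in MeHg6 libraries (-2.90 ± 0.08, edgeR adjusted p = 3.3e-11), the smallest p among the named falls, and the gamma subunit gng13b held 23.8, 23.6 and 26.6 CPM in MeHg50 and 102, 95.2 and 108 CPM in MeHg6 libraries. Both were nearly constant within each group. Their means at 6 µg/L, 114 and 102 CPM, stood beside control means of 104 and 93.3 CPM, whereas opn1sw1 averaged 63.8 CPM at 6 µg/L and 699 CPM in controls.

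Synaptic genes fell on both sides of the synapse. Among 38 tested presynaptic release genes 25 fell and 0 rose, with a median of -0.64, and among 48 transmitter receptor and channel genes 29 fell and 1 rose, with a median of -0.55. That 1 higher call was lost without MeHg50 replicate 1 or MeHg6 replicate 2 or 3. The vesicle fusion regulator stxbp1b held 9.57, 8.41 and 9.07 CPM in MeHg50 and 41.0, 40.9 and 40.3 CPM in MeHg6 libraries, a log2 fold change of -2.17 ± 0.09, with almost no spread in MeHg6. The SNARE gene snap25b fell by 0.97 ± 0.08, the synaptophysin gene sypb by 1.17 ± 0.08 and the GABA-making enzyme gene gad2 by 0.83 ± 0.07. Of the receptors, the AMPA subunit gene gria3a held 19.9, 18.8 and 17.2 CPM in MeHg50 and 42.9, 48.9 and 39.18 CPM in MeHg6 libraries, and the NMDA subunit grin1b fell by 0.99 ± 0.07. The complexin cplx4a, which in other vertebrates serves the ribbon synapses of the retina, fell furthest of the presynaptic list, by 3.13 ± 0.21. In the fit on all 12 libraries 16 presynaptic and 15 receptor genes were called lower. The summed presynaptic level was 1446 to 1532 CPM in MeHg50 and 2107 to 2334 CPM in MeHg6 libraries, with controls at 1651, 1804 and 3564 CPM. For the receptor list it was 818 to 878 and 1211 to 1272 CPM, with controls at 1015, 1039 and 1741 CPM. The MeHg6 sums thus lay above those of control replicates 1 and 2 and under that of replicate 3.

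Genes of myelin and oligodendrocytes fell in 11 of 20 cases and rose in 0, at a median of -0.44, among them olig1 (-1.38 ± 0.25), olig2 (-0.63 ± 0.09) and plp1a (-0.73 ± 0.09). The glial filament gene gfap averaged 163 CPM in MeHg50 and 310 CPM in MeHg6 libraries (-0.92 ± 0.06). Other neural lists held calls in both directions. In shares, progenitor and early neuron genes had 22.4% higher and 30.6% lower, and neuron cytoskeleton and peptide genes 19.4% and 27.8%. Over all tested genes these shares were 21.9% and 23.3%. Progenitor and early neuron genes numbered 11 higher and 15 lower of 49, at a median of -0.01, with insm1a higher (1.12 ± 0.09) and neurod1, which differentiating neurons and photoreceptors use, lower (-1.34 ± 0.07). Without MeHg50 replicate 2 or 3 the progenitor genes called higher numbered 7. Under scaling by totals alone 6 were higher and 20 lower, at a median of -0.13, and in the fit on all 12 libraries 5 were higher and 7 lower. The list of neuron cytoskeleton and peptide genes had 7 higher and 10 lower of 36, at a median of -0.16, with nefma higher (0.66 ± 0.08) and stmn1b lower (-0.90 ± 0.07).

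Markers of macrophages and neutrophils rose in 27 of 41 cases and fell in 4, at a median of 0.61, and 15 of the 27 rose at least 2-fold. Those that fell numbered 2 without MeHg50 replicate 1, MeHg50 replicate 2 or MeHg6 replicate 1. Neutrophil myeloperoxidase, mpx, held 99.1, 114 and 120 CPM in MeHg50 and 30.3, 31.4 and 34.1 CPM in MeHg6 libraries (1.80 ± 0.09). The cathepsin gene ctss2.1 held 77.4, 73.1 and 78.1 CPM in MeHg50 and 8.72, 9.63 and 10 CPM in MeHg6 libraries (3.01 ± 0.09, edgeR adjusted p = 6.7e-11). Both were clear of overlap. Summed over the list, the level was 2056 to 2306 CPM in MeHg50 and 1762 to 2028 CPM in MeHg6 libraries, a narrow gap beside the single genes. Lysosome and autophagy genes, which share ctss2.1 with that list, had 20 higher and 9 lower of 41, at a median of 0.28, with ctsd at 1.09 ± 0.07. In the fit on all 12 libraries 12 lysosome genes were called higher.

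Interferon and antigen presentation genes rose in 12 of 23 tested cases and fell in 2, at a median of 0.55. Of 49 such genes in the table the other 26 lay under the level filter. Some of the 23 may have passed it only through their MeHg50 level. Those that fell numbered 1 without MeHg50 replicate 2 or MeHg6 replicate 3, and 3 without MeHg6 replicate 1. The interferon-induced isg15 held 5.96, 8.05 and 8.34 CPM in MeHg50 and 0.340, 0.512 and 0.562 CPM in MeHg6 libraries (3.96 ± 0.25), and irf9 rose by 1.06 ± 0.13. Neither gene had overlapping groups. Genes of inflammation and wounding gave 12 higher (27.9%) and 15 lower (34.9%) of 43, at a median of -0.03, against 21.9% and 23.3% of all genes. At the head of the falls was irg1l, a relative of the itaconate-making gene of activated macrophages, with 17.1, 15 and 18.9 CPM in MeHg50 and 120, 116 and 123 CPM in MeHg6 libraries (-2.81 ± 0.09, edgeR adjusted p = 1.1e-10). Its mean was 14.7, 120, 18.6 and 17 CPM at 0, 6, 30 and 50 µg/L, so the level stood out at 6 µg/L alone among the 4 group means. The prostaglandin synthase ptgs2b fell by 2.42 ± 0.18, and the cytokine il11a rose by 2.55 ± 0.33.

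Matrix metalloproteinase mmp9, a wound-response gene, held 52.4, 54.5 and 66.1 CPM in MeHg50 and 48, 52 and 45 CPM in MeHg6 libraries (0.25 ± 0.09, edgeR adjusted p = 0.043). The call was lost without MeHg50 replicate 2 or 3 or MeHg6 replicate 1 or 3, where the log2 fold change was 0.29, 0.14, 0.25 and 0.21, and under scaling by totals alone, where it was 0.14. The inflammation list had 7 higher members without MeHg50 replicate 3, 5 higher and 7 lower members in the fit on all 12 libraries, and 7 higher and 15 lower members, at a median of -0.14, under scaling by totals alone. Chemokine genes split widely, with 11 higher and 7 lower of 25 tested, and many have close copies. The list had 44 genes before the level filter, and some of the 25 may have passed it only through their higher group. In that list ccl34a.4 held 24.4, 24.6 and 23.1 CPM in MeHg50 and 3.23, 3.3 and 3.75 CPM in MeHg6 libraries, whereas ccl20a.3 held 0.0557, 0 and 0.157 CPM in MeHg50 and 1.53, 1.77 and 2.69 CPM in MeHg6 libraries. The first was steady within groups, and the second was at or near the limit of detection in MeHg50 embryos, where its fitted log2 fold change of -4.62 became -5.80 without MeHg50 replicate 3.

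Iron storage and heme breakdown genes rose in 17 of 25 cases and fell in 4, at a median of 0.67. The largest rises were in ferritin-like genes that lie side by side on chromosome 3 between positions 32099507 and 32140446 of GRCz11. There fthl28 held 86.0, 85.1 and 81.0 CPM in MeHg50 and 11.3, 9.07 and 11.06 CPM in MeHg6 libraries, and fthl29 held 11.8, 10.8 and 11.2 CPM in MeHg50 and 0.566, 0.372 and 0.562 CPM in MeHg6 libraries. Both had steady levels in each group, but as the copies are near-identical, reads may be split or shared among them and the single values are uncertain. Erythroid globin and heme synthesis genes rose in 18 of 38 cases and fell in 7, at a median of 0.25, with 10 higher without MeHg6 replicate 3 7 higher in the fit on all 12 libraries and 9 higher and 10 lower under scaling by totals alone. Embryonic globins hbbe1.1 and hbbe3, of a family with close copies, rose by 1.56 ± 0.09 and 1.6 ± 0.09, and the heme synthesis gene alas1 by 1.08 ± 0.11. The summed level of the erythroid list was 4221 to 4794 CPM in MeHg50 and 3341 to 3994 CPM in MeHg6 libraries, and its part in the iron result was not tested.

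Skeletal muscle genes moved in both directions, with 10 higher and 25 lower of 68 at a median of -0.05. The lower ones numbered 16 without MeHg50 replicate 3 and 13 in the fit on all 12 libraries. Skeletal actin acta1a held 214, 202 and 208 CPM in MeHg50 and 557, 474 and 541 CPM in MeHg6 libraries (-1.34 ± 0.07), and the myosin gene myhb held 30.6, 33.6 and 34 CPM in MeHg50 and 52.6, 66.6 and 49.4 CPM in MeHg6 libraries (-0.78 ± 0.11). Both actin and myosin were clear of overlap, while the calcium pump atp2a2a of slow muscle and heart rose by 0.52 ± 0.14 and was not called by limma (adjusted p = 0.073 and 0.076 at the pseudocounts 1 and 0.1). Heart genes gave 2 higher and 5 lower of 23, a share called of 30.4% against 45.2% for all genes. Cartilage matrix genes gave 4 higher and 10 lower of 30, with the cartilage protein matn1 at 86.3 CPM on average in MeHg50 and 211 CPM in MeHg6 libraries (-1.29 ± 0.10). Cartilage genes called higher numbered 8 without MeHg6 replicate 2 and 2 without MeHg6 replicate 3 or any 1 of the MeHg50 replicates, and in the fit on all 12 libraries 0 were called higher and 5 lower. Under scaling by totals alone 1 was higher and 12 lower.

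In the skin, krt17, an epidermal keratin, held 128, 126 and 117 CPM in MeHg50 and 497, 460 and 442 CPM in MeHg6 libraries (-1.91 ± 0.07, edgeR adjusted p = 4.3e-10), and the mucin muc5.1 held 24.8, 24.4 and 22.3 CPM in MeHg50 and 98.5, 94.6 and 94.5 CPM in MeHg6 libraries (-2.01 ± 0.08). These were among the falls with the smallest p. Neither gene had overlapping groups, which also held for 54.1% of the genes tested. The list of epidermal keratins and other skin genes was mixed, as its skin gene icn2 rose by 1.35 ± 0.09. The list had 11 higher (29.7%) and 14 lower (37.8%) of 37, against 21.9% and 23.3% of all genes. Endothelial genes rose in 15 of 37 cases (40.5%) and fell in 4 (10.8%), beside the same shares of all genes. The scavenger receptor stab2, which lines veins and lymphatic vessels, averaged 75.6 CPM in MeHg50 and 29.0 CPM in MeHg6 libraries (1.38 ± 0.08).

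Digestive organs showed single large differences in place of a common one. The retinol carrier rbp2b, a member of the liver list, held 37.3, 35.22 and 38.5 CPM in MeHg50 and 4.75, 3.21 and 4.06 CPM in MeHg6 libraries (3.22 ± 0.13). Its groups lay far apart, and its MeHg6 mean was the lowest of the 4 group means, with controls at 48.7 CPM. The cytochrome P450 cyp2aa7 was also higher, with 10.4, 10.8 and 13.1 CPM in MeHg50 and 0.170, 0.0931 and 0.125 CPM in MeHg6 libraries (6.42 ± 0.27). That gene overlaps cyp2aa8 on chromosome 23 (42336084 to 42341795 beside 42336142 to 42409339), so reads may be shared between them. Liver genes gave 13 higher (34.2%) and 9 lower (23.7%) of 38, against 21.9% and 23.3% of all genes. Their median was 0.09, and -0.02 under scaling by totals alone. The liver fatty acid carrier fabp10a fell by 1.04 ± 0.22, with 1.61, 2.29 and 1.68 CPM in MeHg50 and 3.62, 4.42 and 3.31 CPM in MeHg6 libraries. Exocrine pancreas genes were mostly under the level filter, with 9 of 27 tested. Of these 2 rose (22.2%), both at least 2-fold, and 2 fell (22.2%), near the 21.9% and 23.3% of all genes. Their median was 0.31, and -0.02 at the lowest when 1 library was left out. The trypsin gene prss59.1 had a log2 fold change of 2.54. Another trypsin gene, prss1, fell (-0.55 ± 0.17, edgeR adjusted p = 0.016) but was not called without MeHg50 replicate 2 (-0.49) or MeHg6 replicate 1 (-0.38).

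Energy metabolism genes gave calls in both directions, in numbers that depended on the scaling. The 13 protein genes of the mitochondrial genome gave 0 higher and 2 lower, at a median of -0.09. That is 15.4% called, against 45.2% of all genes. Of the 2, mt-co3 was lost without any 1 library but MeHg6 replicate 2. The call of mt-nd4, whose groups overlapped, was lost without MeHg50 replicate 2 or 3 or MeHg6 replicate 1 or 3. Without MeHg6 replicate 2, by contrast, 5 were lower. Under scaling by totals alone 6 were lower and 0 higher, at a median of -0.21, and in the fit on all 12 libraries 0 were lower. Nuclear genes of the respiratory chain gave 17 higher and 5 lower of 86, a share of 25.6% against 45.2% for all genes, with a median of 0.05 and ndufa4 lower (-0.47 ± 0.10), and under scaling by totals alone they turned to 7 higher and 14 lower with a median of -0.06. Those called higher numbered 11 and 10 without MeHg50 replicate 1 and 3, and those called lower 2 and 3 without MeHg50 replicate 2 and 3. Glycolysis genes gave 9 higher (21.4%) and 17 lower (40.5%) of 42, against 21.9% and 23.3% of all genes. On the higher side was gapdh, at 2543 CPM on average in MeHg50 and 1608 CPM in MeHg6 libraries. On the lower side was pgam1b (-1.13 ± 0.08). Under scaling by totals alone 4 glycolysis genes were higher and 21 lower, at a median of -0.15. The higher ones numbered 5 without MeHg50 replicate 1 or 3 and 2 in the fit on all 12 libraries. The lower ones numbered 10 to 11 without any 1 of the MeHg50 replicates or MeHg6 replicate 3, and 7 in the fit on all 12 libraries.

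**Figure D3:**
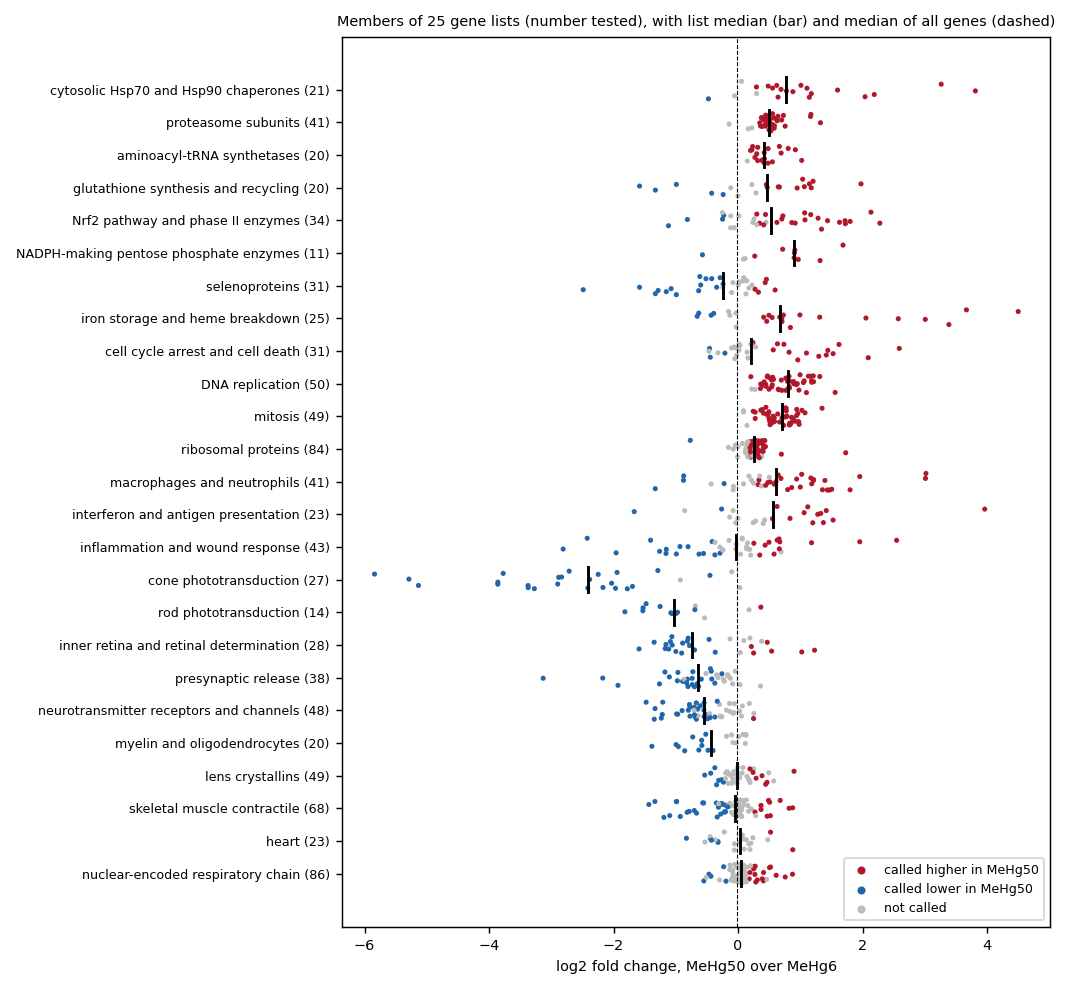
Log2 fold change of MeHg50 over MeHg6 embryos (x axis) for each tested member of 25 gene lists, with called members in red (higher) or blue (lower), the list median as a bar and the median of all genes as a dashed line. Replication and mitosis genes lie almost wholly to the right, and cone genes lie furthest to the left, at a median of -2.41.

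The libraries at 30 µg/L were not part of the test, and their place between the 2 exposures is given as a description. Of the 4318 genes that were higher in MeHg50 embryos, 2940 (68.1%) had their MeHg30 mean between the other 2 means, 820 had it beyond MeHg50 and 558 beyond MeHg6. Of the 4595 lower genes, 3329 (72.4%) had it between, 795 beyond MeHg50 and 471 beyond MeHg6. Over all tested genes 46.9% had their MeHg30 mean between. On the concentration scale 30 µg/L lies 54.5% of the way from 6 to 50 µg/L, and on a log scale 75.9%. The median called gene had made 61.1% of its log2 step at 30 µg/L if higher and 59.6% if lower.

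Gene lists differed in how much of the step had been made at 30 µg/L. Ribosomal, mitosis and replication genes called higher had made most of it, with median shares of 101%, 92.3% and 79.1%. The members of the selenoprotein list called lower had made 83.0% of their step. By contrast the members of the Hsp70 and Hsp90 list called higher had made 39.14%, the aminoacyl-tRNA synthetases 32.9%, the ATF4 genes 32.1%, the cone genes 28.2% and the lower muscle genes 24.0%. On the log2 scale, and with the scaling used here, most of their difference thus lay between 30 and 50 µg/L. Single genes show both forms. At 0, 6, 30 and 50 µg/L the means of top2a were 159, 210, 368 and 403 CPM, and those of hsp70.3 were 25.3, 22.6, 70.9 and 217 CPM. Cone genes as a sum ran from 2963 to 3637 CPM in controls, 495.9 to 597 CPM in MeHg6, 253 to 327 CPM in MeHg30 and 78 to 91.4 CPM in MeHg50 libraries, without overlap of any groups. In CPM, unlike on the log2 scale, the cone sum fell by more from 6 to 30 µg/L than from 30 to 50 µg/L. Some other shares lay further out, with muscle genes called higher at 124% and progenitor and early neuron genes called higher at 131%. At the other end were inflammation and metalloproteinase genes called higher, at 5.74% and -20.7%. The metalloproteinase share rested on 8 genes called higher. That count was 3 without MeHg50 replicate 3, 3 in the fit on all 12 libraries and 4 under scaling by totals alone. The shares of the step were not tested against each other, and were computed with TMM scaling alone. Scaling by totals alone moved the median log2 fold change of all genes by -0.11. That is large beside the list medians of 0.25 for ribosomal and 0.14 for ATF4 genes.

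**Figure D4:**
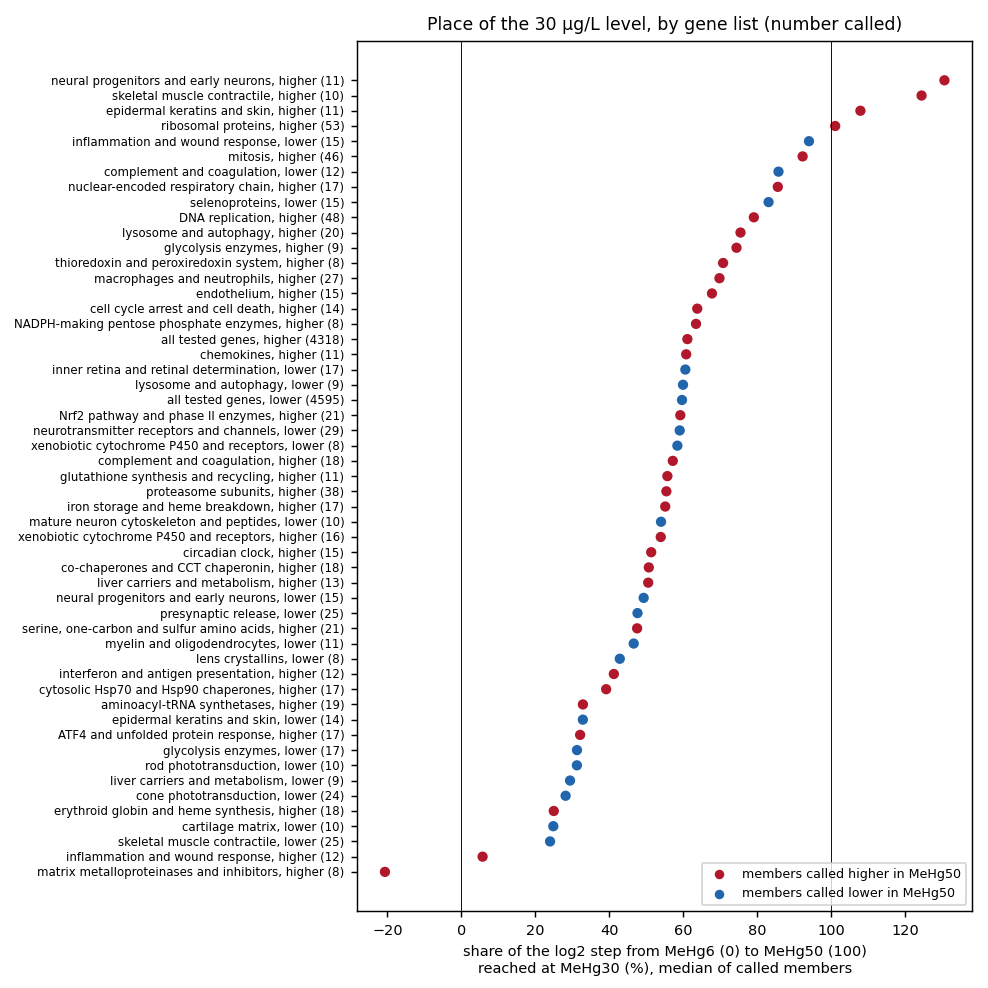
Median share of the log2 step between MeHg6 (0) and MeHg50 (100) that was reached at MeHg30, for the called members of each gene list with at least 8 of them, red for members higher in MeHg50 embryos and blue for members lower. Mitosis and ribosomal genes lie near 100%. Cone genes, the lower muscle genes and the members of the Hsp70 and Hsp90 list called higher lie under 40%.

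**Figure D5:**
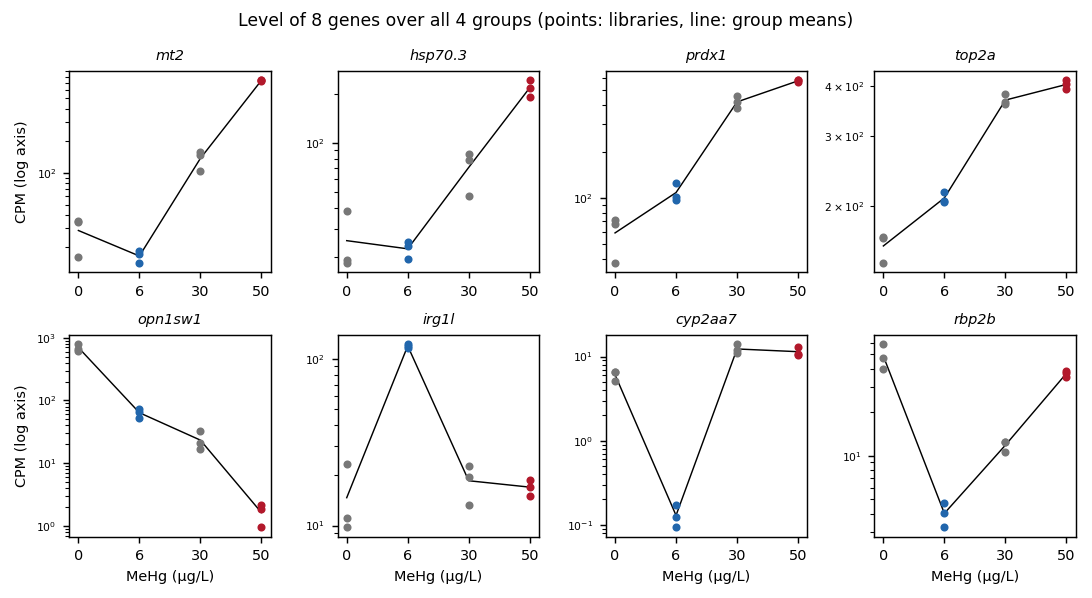
Level in CPM (log axis) of 8 genes in all 12 libraries against the methylmercury concentration in µg/L (x axis, groups evenly spaced), with a line through the group means. The genes mt2, hsp70.3, prdx1 and top2a are highest at 50 µg/L and opn1sw1 is lowest there, whereas irg1l is highest and cyp2aa7 and rbp2b are lowest at 6 µg/L.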

How the data were processed

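Gene expression was measured by RNA sequencing of whole embryos in 12 libraries, of which the 3 at 50 µg/L and the 3 at 6 µg/L methylmercury were compared. The deposited table holds raw counts per gene for 32057 Ensembl genes, and FPKM values that the authors made from them. Dividing each deposited count by the gene's deposited exonic size and its library's total gave the deposited FPKM back in every case, to within 0.005. The submitters' processing notes name the aligner HISAT2 2.0.1, the counter HTSeq 0.6.1, the read tools cutadapt 1.9.1 and FastQC 0.10.1, DESeq2, and GRCz11. No strand setting or annotation release was given in those notes, so overlapping, antisense and near-identical genes are uncertain.

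The test took the 19698 genes whose FPKM averaged 0.5 or more over the 6 libraries, on the deposited counts with edgeR 4.0.16 in R 4.3.3 (TMM scaling, quasi-likelihood fit, 2 groups, two-sided, Benjamini-Hochberg adjustment, adjusted p under 0.05). The SE is the log2 fold change divided by the square root of F, which is approximate. Levels are CPM with the same scaling, and the other 6 libraries were scaled to the same library. The share of a step is the difference of mean log2(CPM + 0.5) between MeHg30 and MeHg6 divided by that between MeHg50 and MeHg6. Where all libraries of a group lacked a gene, 3 counts over the group stood as its floor, which covers counting error only. The fit was tried on simulated counts with few changed genes, as many higher as lower, and a single fixed spread. With so large a share of genes called here, that trial cannot check the scaling or the calls of these data.

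The comparison and its 57 gene lists were chosen with earlier results of these data known. The lists held 1767 symbols, of which 1693 were in the table as written, 14 were found through other symbols of the gene and 60 were not found, and a name pattern added 250 genes. Genes named are the 15 largest rises and falls with a symbol, a mean of at least 1 CPM and no overlap of groups, the 10 smallest p in each direction, up to 6 members with the smallest p per list, and 20 genes fixed whatever their result. Only part of them are printed, some are not reported here, and not every list is described. Alternatives were other scalings, filters and models (DESeq2 1.42.0, limma 3.58.1), fits on more libraries, length offsets, a block for the replicate number and leaving out each library. No sequences are shown.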

Additional observations from a re-analysis of the deposited data

How the results depend on the processing

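Under 14 alternative settings and 6 fits that left out 1 library each, no gene called in the comparison was called in the opposite direction. Higher and lower calls numbered 4318 and 4595, and without 1 library they ran from 3454 to 4252 and from 3734 to 4287. Lower counts came from the fit on all 12 libraries (2204 and 2537), limma on log2(FPKM + 0.1) for higher genes (2850) and a minimum of 2-fold (735 and 872), which tests nothing but size. The cause of the first 2 was not tested. The FPKM are scaled by library totals alone, and limma on log2(FPKM + 0.1) gave 5798 lower genes. In edgeR, scaling by totals alone gave 3000 higher and 6182 lower genes. DESeq2 gave 4078 and 3861, and median-of-ratios scaling 4520 and 4398. Of the genes with a MeHg30 mean beyond MeHg6, scaling by totals alone gave 1018 higher and 247 lower ones, against 558 and 471. Of 349 named genes, 298 had the same call in the fit on all 12 libraries and 51 lost it, and 339 to 348 had the same call under the other settings that tested all of them. Same-numbered libraries of the 2 groups deviated together weakly, with correlations of 0.20, 0.16 and 0.081, so the numbers were not taken as pairs, although each library correlated best with its own number, a hint from the data and not the design. With the replicate block 4906 genes were higher and 5050 lower. Over eighths of exonic length the median log2 fold change ran from -0.07 to 0.02, and with length offsets 4674 genes were higher and 4602 lower. The median deviation of the longest minus the shortest eighth was furthest from 0 in MeHg6 replicates 1 and 2, at -0.13 and 0.11. At 15665053 to 20251479 counts per library, genes under 0.5 FPKM were not tested, and for genes near 0 in one group the fitted fold depends on the prior count.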

Other observations

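Circadian clock genes were higher in MeHg50 embryos in 15 of 36 tested cases (41.7%) and lower in 6 (16.7%). The shares of all genes were 21.9% and 23.3%, and the list's median was 0.24. The period gene per1b held 27.3, 40.1 and 42.8 CPM in MeHg50 and 4.64, 8.61 and 7.75 CPM in MeHg6 libraries (log2 fold change 2.38 ± 0.20), and the output factor gene tefa rose by 1.15 ± 0.08. The clock receptor gene rorab fell by 1.3 ± 0.08. Neither the hour of collection nor the light schedule is in the labels, and their part in these values was not tested. Of 20 tested apolipoprotein and yolk genes 7 were higher (35%) and 4 lower (20%), at a median of 0.05, against 21.9% and 23.3% of all genes. Those called higher numbered 4 without MeHg50 replicate 1 or 3 and 2 in the fit on all 12 libraries. The yolk protein gene vtg7 averaged 26.6 CPM in MeHg50 and 3.54 CPM in MeHg6 libraries (2.90 ± 0.13).

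A few genes were at 0 in every library of one group, and those named here other than ggact.3 were chosen after their values were seen. The gene ggact.3 (chromosome 1, 2446996 to 2453185, GRCz11) had 0 counts in MeHg50 and 288 in MeHg6 libraries, which is at least 94.1-fold lower by the floor of 3 counts over the group, and its means at 6 and 30 µg/L were 5.25 and 0.951 CPM. The gene zgc:194221 (chromosome 22, 2680895 to 2682759) had 0 counts in MeHg50 and 309 in MeHg6 libraries, at least 101-fold lower, with 2.67 CPM at 30 µg/L. In the other direction AL954142.2 (chromosome 9, 9286419 to 9289060) had 161 counts in MeHg50 and 0 in MeHg6 libraries, at least 54.8-fold higher, and was also at 0 in the MeHg30 libraries while controls averaged 1.12 CPM. Genes with a clone name or no symbol were called at least 2-fold apart in 578 of 3614 cases, or 16%, against 8.16% of all genes tested.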
